A study of Rattus norvegicus with 59 samples.

Results

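The baseline transcriptome of INS-1E cells was described from the 20 NG libraries among the 59 libraries of the study. All libraries labelled with 11.1 mM glucose were taken, and no other criterion was used. INS-1E is a rat insulinoma line, that is, a line of proliferating tumour cells that secrete insulin, and the labels give its cell type as beta-cell. NG cells were cultured in medium with 11.1 mM glucose for 72 h with no drug. The other 2 groups, HG (20 libraries, 20 mM glucose) and HG + drugs (19 libraries, 20 mM glucose with metformin, exendin-4 and sodium salicylate), were used only for correlations, between NG and the other groups across equal replicate numbers and within each group. All groups were the same line in the same medium. The study describes the replicates as independent experiments. One line stands for 1 tumour, so the spread between libraries is that of repeated cultures and not of animals.

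Pancreatic beta-cells make proinsulin in the endoplasmic reticulum, process it in secretory granules with prohormone convertases, and release insulin when glucose metabolism closes ATP-sensitive potassium channels. They share a large part of their secretory and synaptic genes with neurons. In healthy islets, beta-cells rarely divide and hold no other islet hormone in quantity, whereas glucagon, somatostatin and pancreatic polypeptide mark alpha-, delta- and PP-cells. Insulinoma lines divide in culture and may keep hormones of other islet cells.

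The values were FPKM, the fragments of a transcript scaled to its length and to the mapped reads of the library, for 18331 RefSeq transcripts under 17031 symbols. The depth derived from the spacing of the low values was 6.94 to 9.49 M reads (M, mega) per NG library (median 8.59 M), at which 1 FPKM of a transcript of median length was worth about 16.3 reads and 3 reads were worth 0.184 FPKM. A value listed at 0 therefore allowed a level up to about that value in 1 library. Pairwise Pearson correlations of log2(FPKM + 1) between NG libraries were 0.965 to 0.985 across transcripts. Library 9 had the lowest depth and was at the end of the range for several transcripts below, so counts of calls are also given without it. None of the 14 housekeeping genes listed had a value of 0 in any library.

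Of the 18331 transcripts, 10664 (58.2%) averaged at least 1 FPKM in NG, and 9891 reached 1 FPKM in each of the 20 libraries. There were 3386 transcripts (18.5%) listed at 0 in all 20 libraries. The 10 most abundant transcripts held 20.1% ± 1.78 (SD, n = 20) of the summed FPKM. Because they are short, they held 6.85% ± 0.53 of the reads. Ribosomal protein transcripts (95 entries) held 17.5% ± 1.09 of the summed FPKM.

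The most abundant transcript was Ins1, 1 of the 2 rat insulin genes, with a lowest, median and highest level of 53963, 65525 and 87186 FPKM. Ins2, the other insulin gene, was the second, with 10691, 16026 and 22060 FPKM. Every library had more Ins1 than Ins2, and the Ins1 to Ins2 ratio was 4.36 at the median (range 3.87 to 5.67). The coding sequences of Ins1 and Ins2 are alike, so reads may have been divided between them by the counting, and the ratio is uncertain to that extent. Ins1 alone held 11.4% ± 1.38 (SD, n = 20) of the summed FPKM and Ins2 held 2.62% ± 0.511. Iapp, which encodes the amyloid peptide released with insulin, came next at 6828, 8179 and 10441 FPKM. The Iapp entry is only 282 bases long, with an estimated mean of 5887 reads per library, so its FPKM depends strongly on the length correction. It was followed by Chgb (chromogranin B, a granule matrix protein) at a median of 6085, the polyubiquitin gene Ubb at 5770, Gnas (the stimulatory G protein alpha subunit) at 4062, Gapdh (a glycolytic enzyme) at 3336 and Chga (chromogranin A) at 3052 FPKM. The rest of the 20 most abundant transcripts were Ppia, a peptidyl-prolyl isomerase, at 2538 FPKM, and 11 ribosomal protein entries. The latter were between 2129 (Rpl31) and 2933 FPKM (Rpl41), among them the pseudogene Rpl37a-ps1 of 234 bases (2730 FPKM).

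The promoters of both insulin genes are shown because these were the 2 most abundant transcripts and carry known beta-cell motifs. The windows run from 250 bases before to 50 bases after the annotated start in RefSeq (GRCr8), chr1:261185869-261186168 on the plus strand for Ins1 and chr1:207273756-207274055 on the minus strand for Ins2. Capitals mark GCCATCTG, an E-box bound by basic helix-loop-helix factors such as NEUROD1, and TAATTA, a homeodomain motif of the kind bound by PDX1, both searched on both strands.
Ins1: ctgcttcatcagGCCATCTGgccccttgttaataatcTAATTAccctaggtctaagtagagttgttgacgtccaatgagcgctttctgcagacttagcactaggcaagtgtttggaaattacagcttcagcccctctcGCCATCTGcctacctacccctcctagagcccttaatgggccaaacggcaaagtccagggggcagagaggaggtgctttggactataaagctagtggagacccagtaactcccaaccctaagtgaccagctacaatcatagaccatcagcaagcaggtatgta
Ins2: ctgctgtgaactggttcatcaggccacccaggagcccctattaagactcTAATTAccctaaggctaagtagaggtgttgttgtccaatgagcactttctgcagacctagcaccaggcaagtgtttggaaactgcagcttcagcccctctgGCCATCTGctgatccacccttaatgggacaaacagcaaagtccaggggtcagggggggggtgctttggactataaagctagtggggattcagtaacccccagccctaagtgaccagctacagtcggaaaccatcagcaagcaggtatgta
GCCATCTG occurred in 1.23% and TAATTA in 5.36% of 33469 promoter windows of equal length. In Ins1 the E-box began 238 and 112 bases before the start and the homeodomain motif 213 bases before it. In Ins2 they began 100 and 201 bases before the start. Neither E-box overlapped the homeodomain motif. Of 10 islet hormone promoters, GCCATCTG was found in the 2 insulin genes, and TAATTA in Ins1, Ins2, Sst and Ucn3. These matches describe the sequence and do not show binding.

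Of the other islet hormones, Gcg, the glucagon gene, was expressed at a lowest, median and highest level of 378, 914 and 1706 FPKM. The level of Ins1 was 73.3 times that of Gcg at the median of the libraries. Libraries 14, 15 and 19 had the 3 lowest Gcg values (378 to 394 FPKM) and libraries 11 and 12 had the highest, with a gap on either side of the other 15 libraries. Sst (somatostatin), Ppy (pancreatic polypeptide) and Pyy (peptide YY) each had a median of 0 and no value above 0.388 FPKM. Ghrl (ghrelin) was at 0.394 to 3.7 FPKM, and Ucn3 (urocortin 3, a marker of mature mouse beta-cells) at 1.79 to 8.89 with a median of 4.88. Gast, the gastrin gene, expressed in the fetal islet, was at a median of 5.17 FPKM (1.52 to 11.7).

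Among 38 other peptide hormone and neuropeptide genes, 7 averaged at least 1 FPKM and 4 were listed at 0 in all libraries (Gal, Grp, Nppb and Npvf). Npy (neuropeptide Y) was by far the most abundant, at 277, 352 and 421 FPKM. Sct (secretin) followed at a median of 37.2, Cck (cholecystokinin) at 25.9 and Prok2 (prokineticin 2) at 9.54 FPKM. The medians of Pmch, Adm and Pomc were between 5 and 8 FPKM.

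**Figure D1:**
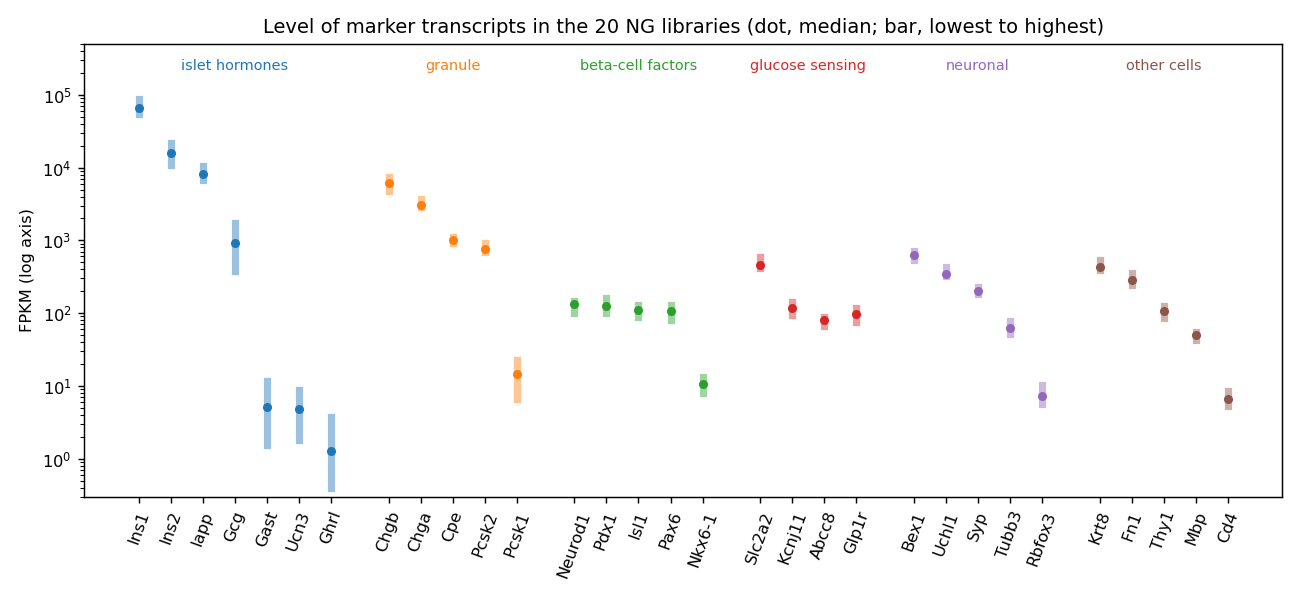
FPKM (log axis) of named markers in the 20 NG libraries, grouped by role, with a dot at the median and a bar from the lowest to the highest library. The 4 leading islet hormones span from 65525 (Ins1) to 914 FPKM (Gcg), and the bar of Gcg is longer than those of Ins1, Ins2 and Iapp.

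Transcription factors of beta-cells were present, with 15 averaging at least 1 FPKM among the 16 of 20 listed that had an entry. Counts for the other lists are likewise over members with an entry. Neurod1, Pdx1, Isl1 and Pax6, which activate insulin and other islet genes, had medians of 131, 124, 112 and 108 FPKM. St18 was at 69.2 and Foxa2 at 40.3 FPKM. Nkx6-1 was lower, at 8.06, 10.6 and 13.1 FPKM. Nkx6-2 had the lowest level, with a median of 0. Of 13 factors of other islet cells and progenitors, only Etv1 (87.5 FPKM) and Gata4 (15.4 FPKM) averaged at least 1 FPKM. The alpha-cell factors Irx1 and Irx2 and the endocrine progenitor factor Neurog3 had medians of 0 beside the 914 FPKM of Gcg.

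Glucose sensing genes were expressed in 20 of 21 cases. The glucose transporter Slc2a2 had the highest level of these, at 419, 460 and 588 FPKM. The potassium channel subunits Kcnj11 and Abcc8 had medians of 119 and 80.8, glutamate dehydrogenase Glud1 102, and the incretin receptors Glp1r and Gipr 95.8 and 49.8 FPKM. Trpm4 was the lowest at 0.867. Hexokinases of other tissues were nearly absent. Hk1 was listed at 0 in all 20 libraries, Hk2 was listed at 0 in 17, and Hk3 did not exceed 0.0817 FPKM. Slc2a1, the transporter of most cells, was at 21.5, 47.6 and 68.5 FPKM, and G6pc, which releases free glucose in liver, had a median of 1.68.

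Of 26 granule and prohormone processing genes, 25 averaged at least 1 FPKM. After Chgb and Chga, carboxypeptidase E (Cpe) was at a median of 1025, the zinc transporter Slc30a8 at 835, the convertase Pcsk2 at 772, Scg5 at 464 and Sytl4 at 369 FPKM. The other convertase, Pcsk1, was at 6.51, 14.7 and 22.7 FPKM, below the Pcsk2 level in every library. Dlk1 was the lowest, at a median of 0.105.

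Neuronal genes were expressed in 36 of 41 cases. Bex1 and Bex2 had medians of 627 and 544, the ubiquitin hydrolase Uchl1 344, complexin 2 (Cplx2) 207, synaptophysin (Syp) 203 and stathmin-like Stmn3 156 FPKM. Tubb3 and Mapt, both microtubule genes of neurons, were at 61.9 and 54.7 FPKM. Elavl3 was the lowest, at 0.205, and Rest, the repressor of neuronal genes, was at 0.185 to 0.655 FPKM. Of 34 genes of transmitter synthesis, storage and reception, 11 averaged at least 1 FPKM. Among the leading ones were Gabbr2 (29.8), Gad1 (26.4) and Chrnb2 (20.8), and Tph1, which makes serotonin in the islets of pregnant mice, was at 0.19 FPKM. Tph2 and Slc17a6 were listed at 0 in all libraries.

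Markers of other cells were mostly absent. Of 16 exocrine pancreas genes, 9 were listed at 0 in all 20 libraries, among them Prss2, Cela1, Cpa1, Cpb1 and Pnlip, and 1 averaged at least 1 FPKM. None of 12 hepatocyte genes and none of 6 germ cell genes had a mean of at least 1 FPKM. Their summed levels had medians of 0.937 and 0.8 FPKM. The immune list summed to 6.34 to 9.61 FPKM, of which Cd4 made up a median of 6.65, and Ptprc, Cd3e and Cd8a had medians of 0. In the endothelial list (23.3 to 39 FPKM in sum) Esam was at 28 and Pecam1 and Cdh5 were at medians of 0. Fibronectin (Fn1, 285) and Thy1 (108) led the mesenchymal list, in which Dcn, Lum and Pdgfrb were listed at 0 in all libraries. Krt8 was at 436 FPKM with Krt19 at a median of 0, and Mbp at 50.3 with Sox10 listed at 0 in all. Vim, which many cell lines express, had a median of 0.177 FPKM.

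Of 25 genes known to be silenced in mature rodent beta-cells, 14 averaged at least 1 FPKM and 3 were listed at 0 in all libraries (Hk1, Yap1 and Smoc2), where 58.2% and 18.5% of all transcripts did, so these counts are not a result about the list. C1qbp (105) and Mgst1 (95.6) had the highest medians, followed by Acot7 (38.5), Oat (35.4), Cat (23.5) and Tgm2 (11.7). Ldha, the lactate dehydrogenase subunit of glycolytic tissues, was listed at 0 in 13 libraries and did not exceed 0.166 FPKM. Slc16a1, the monocarboxylate transporter, was at 2.03, 3.37 and 4.9 FPKM.

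All 38 cell cycle genes averaged at least 1 FPKM. Pcna, the sliding clamp of replication, had a median of 265, the mitotic kinase Cdk1 149.5, Ube2c 121, and Mki67 35.4 FPKM. Among growth regulators, Cdk4 was at 256 and cyclin D2 (Ccnd2) at 176 FPKM, whereas cyclin D1 (Ccnd1) was at 0.501. Of the inhibitors, Cdkn1b was at 75.8 and Cdkn2c at 33.2, Cdkn2a had a median of 0 and Cdkn1c was listed at 0 in all libraries. Rb1 was at 0.117 to 0.383 FPKM. Phgdh, the first enzyme of serine synthesis, was listed at 0 in all libraries, while the later enzymes Psat1 and Psph were at 51.9 and 28.9 FPKM.

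The spread between the 20 libraries was small for most transcripts. Among 8376 transcripts of at least 300 bases that averaged 5 FPKM or more, the median coefficient of variation (CV) was 0.0935, and 0.0708 after the part expected from counting reads was taken out. The steadiest were Cul4a (a ubiquitin ligase scaffold, 47.6 to 52.4 FPKM), Add1 (38.8 to 42.3), Rab7a (171 to 187) and Ctnnb1 (beta-catenin, 91.8 to 103). There were 118 transcripts (1.41%) with a CV beyond counting of at least 0.3, and 370 when the minimum mean was 1 FPKM. Of the 118, 73 (61.9%) belonged to symbols with several entries, against 8.82% of all 8376. For 63 of the 73, the summed FPKM of the symbol had a CV below 0.3 (median CV 0.0853 over the 73). An example is RT1-CE5, whose more variable entry ranged from 0.00295 to 29.4 FPKM with a CV of 1.01, while the sum of its entries had a CV of 0.0637. The spread of such entries lay in how reads were divided among entries of 1 symbol. Ddit3 differed from these. Its more variable entry had a CV of 0.789, and the sum of its entries had one of 0.677.

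The remaining 45 variable transcripts had a single entry. The most variable was the pseudogene Ybx1-ps3 (0.0184 to 61.5 FPKM), which shares sequence with its parent gene and is uncertain for that reason, as are the class I histocompatibility entries RT1-CE7 and RT1-CE11. Rn45s and Rn28s, which are ribosomal RNAs, had CVs of 0.736 and 0.777. Rn45s was at 10, 16.9 and 77.8 FPKM, with libraries 2 and 7 far above the other 18. LOC257642 (80.4 to 550 FPKM) and LOC310926 fell into 1 group with these ribosomal RNAs, with a median pairwise r of 0.938.

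After these came Trib3, a pseudokinase induced by amino acid and endoplasmic reticulum stress, at 4.36, 24.2 and 60.5 FPKM (CV 0.624). Libraries 8, 9 and 10 had the 3 lowest values, followed by libraries 20 and 2, and library 1 had the highest. Chac1, a glutathione-degrading enzyme, was at 1.97, 8.62 and 20.7 FPKM (CV 0.625), Adm, the vasodilator peptide adrenomedullin, at 0.647, 6.44 and 12.7 (CV 0.626) and Ddit4, an inhibitor of mTORC1, at 7.42, 18.5 and 42.4 FPKM (CV 0.536). The rest of the 20 most variable were Sik1 (1.97 to 16.7), Klf2 (7.42 to 33), Ptges (3.07 to 18.8), Cited2 (29.5 to 121), Egr1 (5.26 to 25.7), Gcg, Per1 (7.37 to 29), LOC100365935 (3.06 to 11.6), Bhlhe40 (32.9 to 129) and Ak4 (16.7 to 70.8). Gcg, with a CV of 0.368, was the only islet hormone among the 20. Gast ranked lower, with a larger CV of 0.443 of which 0.345 was beyond counting, against 0.368 for Gcg. Iapp, at 282 bases, and Ucn3, below the minimum mean of 5 FPKM, were not ranked. Ins2 had a CV of 0.223, Ins1 0.151 and Iapp 0.11.

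**Figure D2:**
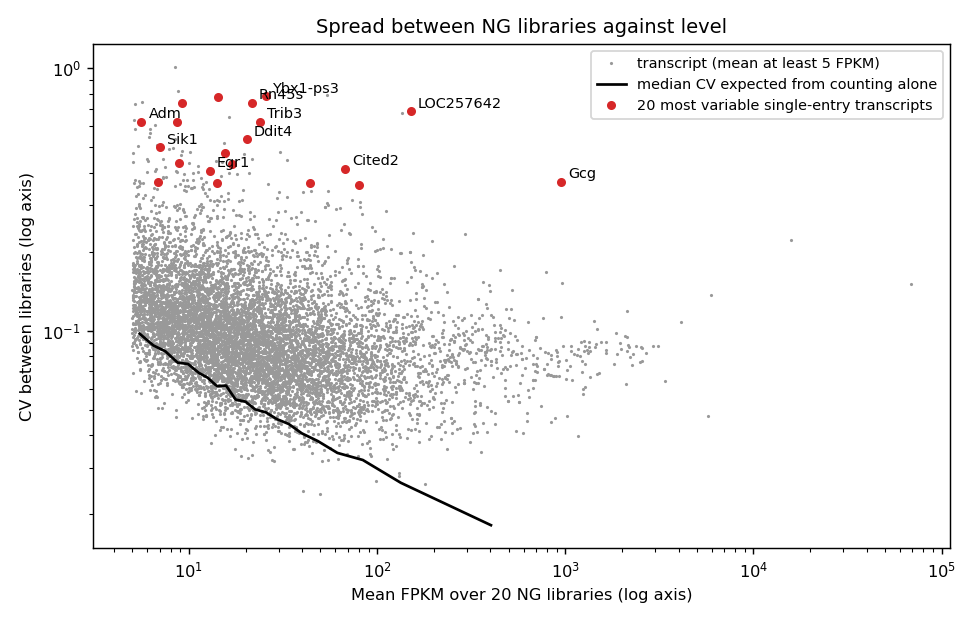
Coefficient of variation between the 20 NG libraries against mean FPKM (both log axes) for 8376 transcripts, with the median CV expected from counting as a line. The 20 most variable single-entry transcripts (red) lie between CVs of 0.359 and 0.781, against a median of 0.0935 for all.

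When the 100 most variable transcripts were grouped by their correlations, the largest group held 21 transcripts with a median pairwise r of 0.791. It contained Ddit3, Trib3, Chac1, Adm, Ddit4, Ptges, Cited2, Nr1d1, Bhlhe40, Ak4, Gys1, Slc2a1 and Kdm3a among others. A second group of 7 held Sik1, Crem, Per1, LOC100365935, Mest and Srsf5 (median r 0.693), and another of 3 held Gcg, Igfbp2 and Gda (median r 0.541). Since the members were grouped by these same values, no test was made. Over all 10563 transcripts of at least 300 bases that averaged 1 FPKM or more, the first and second principal components took 21.5% and 10.9% of the variance. Ddit3, Trib3, Adm, Chac1 and Ddit4 were among the 20 transcripts with the largest positive weights on the first component. Libraries 9, 10, 8 and 2 had its lowest values (-0.476 to -0.291) and library 1 the highest (0.344).

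Each of 8 transcripts, chosen as references for a process, was then related to every other expressed transcript across the 20 libraries (limma, 10663 transcripts per reference, Benjamini-Hochberg adjustment). All 8 fits use the same libraries, so the calls of references that vary together are not separate results. The calls were most numerous for Dbp (3329), Trib3 (3040) and Top2a (2367), and fewer for Hspa5 (344), Ins2 (81), Hmgcs1 (10), Txnip (7) and Egr1 (0).

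**Figure D3:**
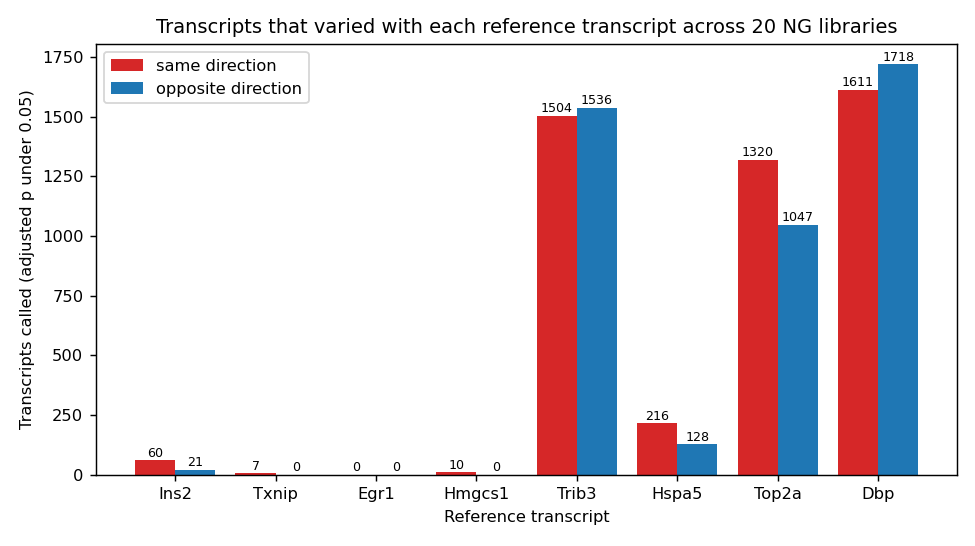
Number of transcripts (bars from 0) with an adjusted p under 0.05 that varied in the same (red) or the opposite (blue) direction as each of 8 reference transcripts across the 20 NG libraries. Dbp, Trib3 and Top2a have from 2367 to 3329 calls in both directions together, and Egr1 has 0.

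Libraries with high Trib3 had high levels of genes of the ATF4 and CHOP response, which cells switch on when amino acids are short or proteins misfold. Of 27 measured members other than Trib3, 19 varied with Trib3 and 0 against it, where 14.1% of all tested transcripts varied with it and 14.4% against it. The median r of the list was 0.76, against -0.04 over all tested. Ddit3, which encodes the factor CHOP, was at 8.63, 49.2 and 184 FPKM and was low in libraries 8, 9, 10 and 2, as Trib3 was, and highest in library 1. Its log2 level changed by 1.06 ± 0.07 (SE) per log2 unit of Trib3 (limma adjusted p = 1.7e-08). The correlation was r = 0.96 and rho = 0.96, each with a permutation p of 1e-05, the smallest that 100000 permutations can give, and r was 0.95 without libraries 9 and 10, the farthest from the Trib3 median. Ddit3 has 2 entries, and the higher is given here.

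Chac1 (slope 0.72 ± 0.09), Ddit4 (0.65 ± 0.09), Atf3 (0.45 ± 0.04, a stress-induced factor) and Nupr1 (0.32 ± 0.05, a stress protein) followed Trib3 with smaller slopes. Those of Atf4 (0.18 ± 0.04), the tRNA synthetase Sars (0.16 ± 0.02) and asparagine synthetase Asns (0.10 ± 0.02) were smaller again. The adjusted p was at most 0.00058 for these 7 genes (limma). Atf3 was at 0.888 to 5.56 FPKM, a level at which log2(FPKM + 1) understates changes. Its slope is therefore not on a par with those of more abundant genes. Cebpb (r = -0.40), Gars (r = -0.35), Atf5, Psph, Wars, Slc7a5, Ppp1r15a and Aldh1l2 did not pass the test. The transcripts with the highest r to Trib3 were not all of this list. Among them were Spr (sepiapterin reductase, 120, 203 and 274 FPKM, slope 0.31 ± 0.02, adjusted p = 1.1e-09), Ddit3, Herpud1 (a component of endoplasmic reticulum-associated degradation, 0.28 ± 0.02) and Pex26 (a peroxisomal protein, 0.36 ± 0.03), all with a limma adjusted p of at most 1.7e-08. The RNA helicases Ddx5 (-0.20 ± 0.02) and Ddx3x (-0.18 ± 0.02), Arf2, Taf2 and Ythdf1 had the most negative r, from -0.94 to -0.91.

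The promoters of Trib3 and Chac1 are shown because both were among the most variable transcripts and carry a match to TGATGNAA, a composite motif bound by C/EBP and ATF dimers such as ATF4 and CHOP. The windows are chr3:161275484-161275783 (minus strand) for Trib3 and chr3:126795881-126796180 (plus strand) for Chac1 (RefSeq, GRCr8), 250 bases before to 50 after the start, with the matches in capitals. Both matches were on the reverse strand of the window as printed.
Trib3: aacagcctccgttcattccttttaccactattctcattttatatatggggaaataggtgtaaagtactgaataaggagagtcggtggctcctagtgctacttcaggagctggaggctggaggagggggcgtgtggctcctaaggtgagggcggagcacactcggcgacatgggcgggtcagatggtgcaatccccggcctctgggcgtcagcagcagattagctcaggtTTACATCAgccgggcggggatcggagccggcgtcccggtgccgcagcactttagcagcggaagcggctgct
Chac1: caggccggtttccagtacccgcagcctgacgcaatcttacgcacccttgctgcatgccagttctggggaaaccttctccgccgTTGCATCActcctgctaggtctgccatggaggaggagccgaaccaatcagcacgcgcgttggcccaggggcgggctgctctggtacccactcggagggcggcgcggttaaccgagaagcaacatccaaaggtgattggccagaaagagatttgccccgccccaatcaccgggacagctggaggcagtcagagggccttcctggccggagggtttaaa
TGATGNAA or its reverse complement occurred in 3.98% of all 33469 windows. The matches began 21 bases before the Trib3 start and 167 bases before the Chac1 start. Of 25 promoters of the ATF4 and CHOP list, 5 held a match (Nupr1, Chac1, Trib3, Slc7a1 and Pck2), and of these Nupr1, Chac1, Slc7a1 (r = 0.73) and Pck2 (r = 0.76) varied with Trib3. A match describes these letters only.

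Genes of the hypoxia response, which HIF factors induce when oxygen is low, also varied with Trib3. Of 16 members, 13 varied with it and 0 against it, and the median r was 0.85. Without library 9 all 13 passed, as did all 19 called members of the ATF4 and CHOP list. Without libraries 9 and 10, 10 of the 13 and 18 of the 19 passed. Adm had a slope of 0.83 ± 0.09 and Slc2a1 of 0.48 ± 0.05. Bhlhe40, a transcriptional repressor, had a slope of 0.50 ± 0.05 and Ndrg1 of 0.22 ± 0.02 (limma adjusted p at most 1.5e-06 for the 4). The slope of Vegfa was 0.16 ± 0.04, with a limma adjusted p of 0.0048 that became 0.11 without libraries 9 and 10. Higd1a, P4ha2 and Pfkfb4 did not pass the test. Ldha, Hk2 and Car9 averaged below 1 FPKM and were not tested.

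Beta-cell genes were counted in the same fit, beside the 14.1% (with) and 14.4% (against) of all transcripts. Of 20 glucose sensing genes, 6 varied with Trib3 (Glp1r, Kcnj11, Glud1, Cacna1c, Adcy8 and Pc) and 0 against it. Without libraries 9 and 10, Cacna1c, Adcy8 and Pc no longer passed (limma adjusted p = 0.075, 0.094 and 0.15). The slope of Glp1r was 0.13 ± 0.02 (limma adjusted p = 5.4e-05). Slc2a2 (r = -0.38) and Gipr did not pass. Of 15 beta-cell factors, Pax6, Myt1, Rfx3 and St18 varied with Trib3, and 2, among them Nkx2-2, against it (St18 had a limma adjusted p of 0.0067, and 0.061 without libraries 9 and 10), and Pdx1 (limma adjusted p = 0.12) and Neurod1 did not pass. With 15 factors, these counts are near the shares over all transcripts. For Ins1, Gcg and Iapp the slopes were 0.01 ± 0.05, -0.00 ± 0.14 and -0.04 ± 0.03, with limma adjusted p of 0.94, 0.998 and 0.44. Ucn3 was the 1 called of 7 islet hormones, with an adjusted p of 0.0499 that was 0.24 without libraries 9 and 10 and 0.16 without library 9.

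Of 38 cell cycle genes, 22 varied against Trib3 and 0 with it, and the median r was -0.56. Of the 22, 13 passed without library 9. Examples were Rrm2, a ribonucleotide reductase subunit (slope -0.12 ± 0.02, limma adjusted p = 0.0003) and Pcna (-0.11 ± 0.02, adjusted p = 0.0016). For Cdk1 (-0.09 ± 0.02) the adjusted p was 0.0082, and 0.12 without libraries 9 and 10. Mki67 and Top2a did not pass the test. Trib3 had a correlation with depth of r = 0.32 (permutation p = 0.17, rho = 0.09 with p = 0.71, r = 0.08 without the 2 libraries of most extreme depth). With depth as a term, 2754 transcripts varied with or against Trib3, and 3152 with a term for sets of 5 replicate numbers. Without libraries 9 and 10, the count was 1912, and 2446 without library 9 alone. Rn45s had r = -0.16 with Trib3, rho = -0.24 (permutation p = 0.51 and 0.3) and r = -0.20 without libraries 9 and 10.

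**Figure D4:**
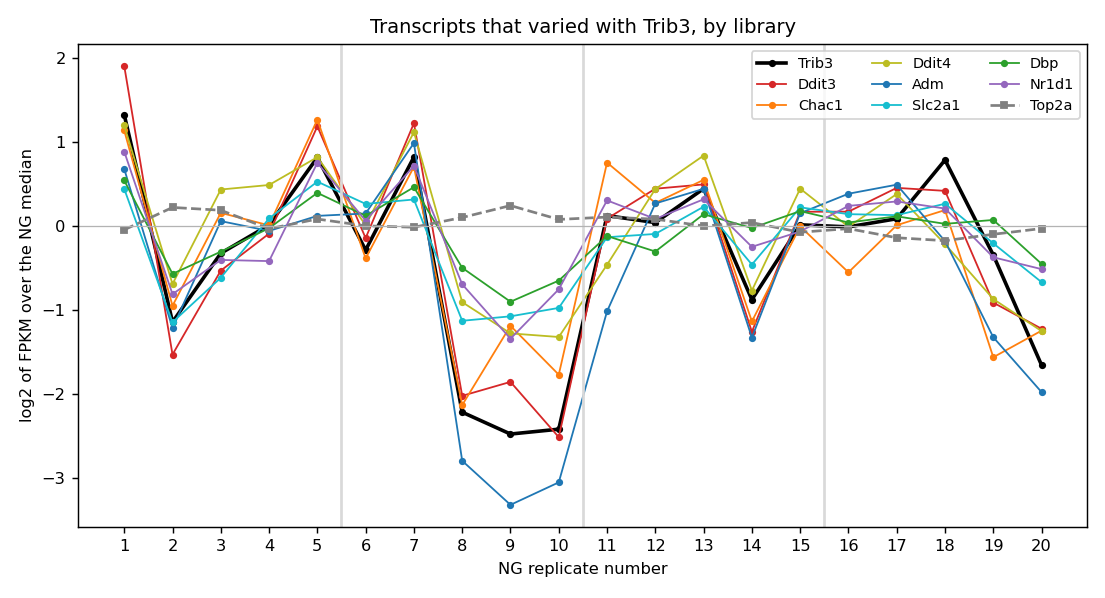
log2 of FPKM over the NG median for Trib3, 7 transcripts that varied with it, and Top2a, by NG replicate number, with lines between sets of 5. In libraries 8, 9 and 10 Trib3, Ddit3, Chac1, Adm, Ddit4, Slc2a1, Dbp and Nr1d1 are all below their medians, and in libraries 1 and 7 they are all above.

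Dbp, a clock-controlled factor, was at 36.6, 68.4 and 99.5 FPKM and had its lowest values in libraries 9, 10, 2, 8 and 20, which were also the 5 lowest for Trib3. Dbp and Trib3 were correlated with r = 0.89 and rho = 0.81 (permutation p = 1e-05 and 6e-05, adjusted p of r 0.00028 over 28 pairs of references), and r was 0.83 without the 2 farthest libraries. In the Dbp fit, 15.1% of transcripts varied with Dbp and 16.1% against it. Of 14 other clock genes, 7 varied with it and Cry2 against it. Nr1d1 (slope 1.28 ± 0.13, limma adjusted p = 1.3e-06), Nr1d2 (0.38 ± 0.06) and Bhlhe40 (1.26 ± 0.19) are repressors of the clock. Tef (0.47 ± 0.05) belongs to the same factor family as Dbp, and Per3, Npas2 and Nfil3 also passed. The core genes Arntl (r = 0.11), Clock (r = 0.02) and Per1 (r = -0.02) did not. Other lists had more calls in the Dbp fit, which shares its libraries with that of Trib3. Of the ATF4 and CHOP list 22 of 28 varied with Dbp (median r 0.71) and of the hypoxia list 14 of 16 (0.82), against a median r of 0.50 for the clock list, and 24 of 38 cell cycle genes varied against it. For Cry2 the limma adjusted p of 0.03 became 0.15 without libraries 9 and 10, and 0.084 without library 9. Outside the list, glycogen synthase Gys1 (slope 1.31 ± 0.10), the lysosomal cystine transporter Ctns (0.99 ± 0.08) and Klhl24 (1.03 ± 0.09) had the highest r, with Vldlr and Myo18a. The tubulins Tubb2a (-0.64 ± 0.05) and Tubb2b (-0.68 ± 0.06) and the calcium channel regulator Rem2 (-1.28 ± 0.11) were among the lowest, with LOC687575 and Twf1. Without libraries 9 and 10, the Dbp fit gave 1921 calls.

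Top2a, the topoisomerase of dividing cells, was at 64.1, 72.4 and 85.6 FPKM, lowest in libraries 18, 17 and 19 and highest in 9, 2 and 3. In its fit 12.4% of transcripts varied with it and 9.82% against it. Of 37 other cell cycle genes, 25 varied with it and 0 against it, and all 37 had a positive r (median 0.69, against 0.02 over all tested). Of the 25, 16 passed without library 9 and 8 without libraries 9 and 2. Rrm1 (slope 0.95 ± 0.13), Cdk1 (1.08 ± 0.15), the spindle protein Tpx2 (1.10 ± 0.15) and cyclin B1 (Ccnb1, 1.28 ± 0.21) are examples, with a limma adjusted p of at most 0.00032. Mki67 did not pass (adjusted p = 0.37). The phosphatase Ptpru (-3.58 ± 0.33, 1.23 to 5.34 FPKM) and Per3 (-2.79 ± 0.30) had the most negative r, followed by Mks1, the calcium channel subunit Cacna1d (-1.26 ± 0.17) and Kctd15. Outside the list, Vcp, an ATPase that extracts proteins for degradation (0.98 ± 0.12), Gspt1 and Ube2l3 were among the highest r. Without libraries 9 and 2, 259 transcripts were called, 1307 without library 9, 1367 with a term for the sets of 5 numbers, and 1316 with a term for depth. The correlation of Top2a with depth was r = -0.49 and rho = -0.38 (permutation p = 0.029 and 0.097, adjusted p of r 0.12 over 8 references, r = -0.22 without the 2 libraries of most extreme depth). Top2a and Dbp had r = -0.63 and rho = -0.58 (permutation p = 0.003 and 0.0084, adjusted p of r 0.027, r = -0.43 without the 2 farthest libraries).

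Hspa5, the main chaperone of the endoplasmic reticulum (BiP), varied little, at 509.8, 587 and 673 FPKM. In its fit, 2.03% of transcripts varied with it and 1.2% against it (216 and 128), and under median-ratio scaling 167 and 54 did. Of 23 other endoplasmic reticulum genes, 12 varied with it and 0 against it, with a median r of 0.65. Of the 12, 9 passed without library 9 and 0 with a term for the sets of 5 numbers. The protein disulphide isomerases Pdia3 (slope 0.74 ± 0.12) and Pdia6 (0.85 ± 0.13), the chaperone Hsp90b1 (0.96 ± 0.15) and the secreted Manf (1.03 ± 0.18) passed with a limma adjusted p of at most 0.0038. The regulators Xbp1 (r = -0.12), Atf6 (r = -0.32) and Herpud1 (r = 0.04) did not pass. Xbp1 has 2 entries, and the higher is given here. For 1 of its entries the CV was 0.47, against 0.0565 for their sum. Between Hspa5 and Trib3, r was -0.06 (rho = -0.01, permutation p = 0.79 and 0.98, r = 0.24 without the 2 farthest libraries). Of 22 sterol synthesis genes 6 varied with Hspa5, led by isopentenyl diphosphate isomerase Idi1 (2.16 ± 0.26, adjusted p = 0.00035), and 3 of the 6 passed without library 9, Idi1 among them. Thymidine kinase Tk1 and Nucb2 were also among the highest r. Stk25, LOC100125385, Ptprs, Rexo1 and Zfp532 had the most negative r, and without library 9 the last 3 did not pass (limma adjusted p = 0.15, 0.084 and 0.1). The count of 344 calls fell to 42 without library 9, to 16 with a term for the sets and to 5 under quantile normalization.

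Ins2 and Hspa5 were correlated (r = 0.78, rho = 0.71, permutation p = 7e-05 and 0.0008, adjusted p of r 0.00098 over 28 pairs, r = 0.78 without the 2 farthest libraries). Ins2 was lowest in libraries 20, 18, 8, 16 and 19 and highest in 9, 5, 4, 11 and 12. In the Ins2 fit, 0.563% of transcripts varied with it and 0.197% against it. Ins1 had the highest r, with a slope of 0.62 ± 0.06 (limma adjusted p = 1.7e-06, and 2.6e-05 without library 9). As with their ratio, reads may have been divided between Ins1 and Ins2 by the counting, so this relation is uncertain to that extent. Of 24 endoplasmic reticulum genes, 8 varied with Ins2 and 0 against it, among them Hyou1 (0.46 ± 0.06), Sdf2l1, Pdia6 and Dnajc3. Without library 9, only Hyou1 and Sdf2l1 of the 8 passed, and with a term for the sets 0 did. Of 25 granule genes, 3 varied with Ins2: Pam, which amidates peptides (0.33 ± 0.06, adjusted p = 0.016), Sytl4 and Ero1lb. Without library 9 none of these 3 passed (adjusted p = 0.059, 0.081 and 0.1). Ero1lb is also on the endoplasmic reticulum list and is counted in both. Iapp (adjusted p = 0.92), Chgb (0.49), Gcg (0.41) and Pdx1 (0.063, r = 0.67) did not pass in this limma fit. Outside these lists, Tk1 (0.39 ± 0.06), Dync1i1 (0.63 ± 0.09) and Aldh7a1 had the highest r, and Pomt1, Exoc3l1, Stk25, Rgs10 and Mug1 the lowest. The 81 calls became 27 without library 9, 15 without libraries 20 and 18, 45 with a term for depth and 12 with a term for the sets, under which Ins1 had an adjusted p of 7.1e-05.

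Hmgcs1, which starts sterol synthesis, was at 16.2, 19.7 and 34.5 FPKM, with library 9 the highest, followed by library 11 at 26.1. Of 10663 transcripts, 10 (0.0938%) varied with it, and 7 of these were among the 21 other sterol genes. Among them were Fdft1, Fdps, Msmo1, Cyp51 and Insig1, which serve sterol synthesis and its feedback. Of the others, Acss2 makes acetyl-CoA and Fam5b was at 3.39 to 5.58 FPKM. The slope of Fdft1, which makes squalene, was 0.65 ± 0.10 (limma adjusted p = 0.0031, r = 0.87, rho = 0.86, permutation p = 1e-05 and 2e-05, r = 0.73 without libraries 9 and 11). Without library 9 the limma adjusted p of Fdft1 was 0.18 and 1 transcript was called, and 1 was called without libraries 9 and 11.

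Txnip, an inhibitor of glucose uptake that glucose induces, was at 79.2, 100.3 and 181 FPKM. With 7 calls (0.0656%), Klf10, a glucose-responsive repressor, was the only 1 of 18 glucose response members that varied with it (slope 0.49 ± 0.06, limma adjusted p = 0.00043). Klf10 is also on the immediate early list, of which 2 of 26 members varied with Txnip. The median r to Txnip was 0.33 for that list and 0.13 for the glucose response list. Fam43a, Hexim1 and Rgs16 were also called, as was the microRNA entry Mir331, which had a median of 0 and a highest level of 57.8 FPKM. The related arrestin Arrdc4 (r = 0.60, limma adjusted p = 0.22) and Mlxipl, which encodes the glucose-responsive factor ChREBP (adjusted p = 0.82), did not pass. Klf10 was the single call without libraries 8 and 11 (adjusted p = 0.04). Egr1, a factor induced within minutes of a stimulus, was at 5.26, 12.1 and 25.7 FPKM. No transcript (0%) varied with it in limma. At an unadjusted p under 0.05, 583 of 10663 passed, a share near the 0.05 that this threshold passes when nothing is related. Of 25 immediate early genes, 22 had a positive r (median 0.31, against 0.01 over all tested), and Fos came closest (slope 0.72 ± 0.13, adjusted p = 0.13). The correlation of Egr1 with depth was r = 0.59 and rho = 0.52 (permutation p = 0.0068 and 0.019, adjusted p of r 0.054, r = 0.55 without the 2 libraries of most extreme depth).

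Besides the pairs given, Hspa5 and Top2a were correlated (r = 0.62, rho = 0.54, permutation p = 0.0039 and 0.015, adjusted p of r 0.027, r = 0.68 without the 2 farthest libraries). The other 24 of 28 pairs of references had an adjusted p of at least 0.073.

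The replicate numbers 1 to 20 were also taken in 4 sets of 5, as a stand-in for sequencing pools. According to the study's methods, libraries were pooled in batches for sequencing. Neither the methods nor the labels say which libraries shared a pool. Between the sets, 87 of 10664 transcripts differed (0.816%, limma F-test, adjusted p under 0.05). At an unadjusted p under 0.05, 1504 did. The second principal component also ran with the numbers. On it, libraries 1, 2, 3 and 5 were at 0.27 to 0.31, library 4 at -0.003 and libraries 16 to 20 at -0.43 to -0.09. The small count of adjusted calls therefore does not show that the sets were alike. Set means were taken on log2(FPKM + 1) and turned back to FPKM. The mean of Scand1 was 96.7, 106, 66.7 and 51.8 FPKM in sets 1 to 4 (adjusted p = 4.3e-05). Pcsk1n, an inhibitor of PCSK1, was at 183, 202, 167 and 139 FPKM (adjusted p = 4.3e-05). Basp1, Taf10 and Cebpb were also highest in set 2 and lowest in set 4. Chgb was lowest in set 1, at 4842 FPKM against 6152, 6345 and 6394 in the other sets (adjusted p = 0.013), as was Cck (adjusted p = 0.013). The granule list, the list of other peptides and the interferon list each had 2 called members. These were Chgb and Pcsk1n of 25, Cck and Npy of 7, and Psmb9 and Tap1 of 14 tested. The other lists had 1 or 0, which at 0.816% of all transcripts is not a result about them.

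Levels in NG were correlated across replicate numbers with those of the other groups, which says nothing of whether the levels were equal. For 10563 transcripts, the median r between NG and HG levels of the same number was 0.40 (90.2% positive), and 0.36 after the means of the sets of 5 were taken out. For HG + drugs, over 19 numbers, it was 0.35 (87.4% positive). For the 20 most variable single-entry transcripts of NG, the median r was 0.68 with HG and 0.58 with HG + drugs, and 19 of 20 were positive in each. These are descriptions across transcripts, which are not independent.

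Of the 8 references, all passed against HG after adjustment over 16 correlations, but without the 2 farthest numbers Txnip, Egr1, Hspa5, Top2a and Dbp did not (permutation, adjusted p from 0.051 to 0.062), and Top2a did not by rho (adjusted p = 0.12). The highest were Ins2 (r = 0.80, rho = 0.82, permutation p = 4e-05 and 5e-05, adjusted p of r 0.00032) and Trib3 (r = 0.79, rho = 0.75, permutation p = 4e-05 and 0.00037, adjusted p of r 0.00032). Without the 2 farthest numbers, r was 0.72 for Ins2 and 0.63 for Trib3, and both passed (adjusted p = 0.013 and 0.023, permutation). Hmgcs1 (r = 0.69, rho = 0.70, permutation p = 0.00059 and 0.00069, r = 0.59 without the 2 farthest) also passed in both. After the set means were taken out, r was 0.70 for Ins2, 0.72 for Trib3, 0.74 for Dbp and 0.31 for Top2a. Against HG + drugs, Ins2 (r = 0.78, rho = 0.72, permutation p = 9e-05 and 0.00083, adjusted p of r 0.00048, r = 0.68 without the 2 farthest) and Egr1 (r = 0.55, rho = 0.55, permutation p = 0.016 for each, adjusted p of r 0.025, r = 0.44 without the 2 farthest) passed, and without the 2 farthest Egr1 did not (permutation, adjusted p = 0.11). Trib3 (r = 0.48, rho = 0.56, permutation p = 0.038 and 0.014, adjusted p of r 0.055, r = 0.30 without the 2 farthest) did not pass by r and did by rho (adjusted p = 0.028). Whether cultures of 1 number shared a sequencing pool was not tested.

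**Figure D5:**
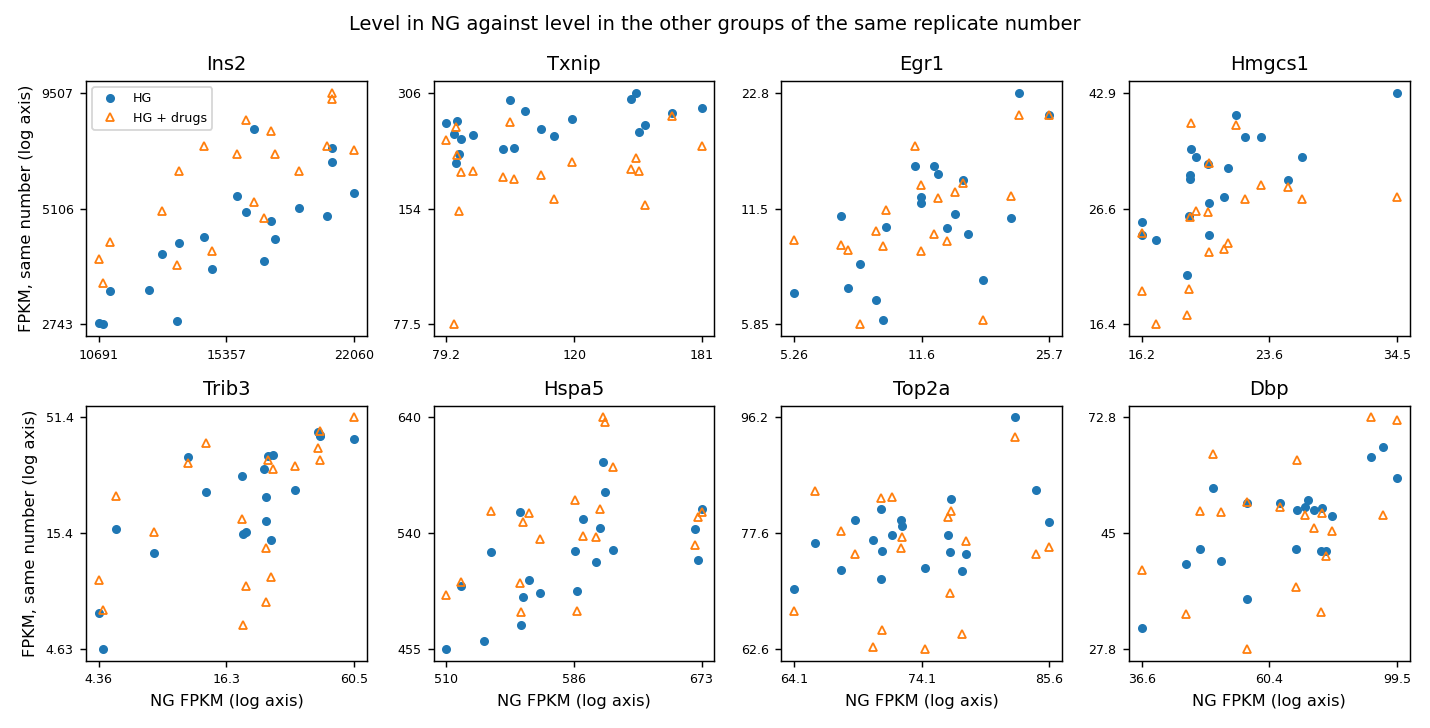
Level of the 8 reference transcripts in NG (FPKM, log axis) against the level in HG (filled circles) or HG + drugs (open triangles) of the same replicate number (log axis). For Ins2 and Trib3 the HG points rise with NG (r = 0.80 and 0.79), and for Top2a the HG + drugs points show little relation (r = 0.15).

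The median r of each list to its reference was also computed within the other groups. The median r of the ATF4 and CHOP list to Trib3 had values of 0.76 (NG), 0.65 (HG) and 0.54 (HG + drugs), and that of the hypoxia list 0.85, 0.49 and 0.80. For the cell cycle list to Top2a it was 0.69, 0.49 and 0.74, and for sterol genes to Hmgcs1 0.65, 0.65 and 0.86. For the endoplasmic reticulum list to Hspa5 it was 0.65, 0.62 and 0.46, and for clock genes to Dbp 0.50, 0.32 and 0.52. For the glucose response list to Txnip it was 0.13, 0.09 and 0.59, for granule genes to Ins2 0.12, 0.22 and 0.06, and for immediate early genes to Egr1 0.31, 0.29 and 0.27. The median over all transcripts was between -0.04 and 0.06 for every reference in every group. Differences between the groups were not tested.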

How the data were processed

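RNA of 20 NG, 20 HG and 19 HG + drugs cultures had been made into TruSeq RNA v2 libraries. The authors deposited FPKM per RefSeq transcript (FastQC 1.0.0, TopHat, Bowtie and Cufflinks, build rn5, per the submitters' processing notes). Column headings call NG "LG" and were matched to labels by number. Of 28 names that had become numbers, 27 were recovered by accession. Identical values were listed for 300 expressed entries of 147 symbols, and all were kept.

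Depth was derived from the steps of low FPKM values (84.8% of 32355 whole within 0.05 reads). Transcripts averaging at least 1 FPKM entered tests as log2(FPKM + 1) in limma 3.58.1 (R 4.3.3, trend, robust, threshold 0.05), which understates changes of low transcripts. Fits were tested on simulated data. Correlations used 100000 permutations (two-sided) in Python 3.11.15. Members and all 31 gene lists were chosen with earlier results of these data known. Named were the 20 most abundant transcripts and the 20 most variable transcripts of a single entry. Up to 6 highest members of each list and the lowest were named, with other members a comparison needed. Up to 5 transcripts per direction and reference were named. Alternatives were scaling, filters, pseudocount, depth and set terms, and left-out libraries. Some genes are not reported here.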

Additional observations from a re-analysis of the deposited data

How the results depend on the processing

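No paired analysis was possible because no groups were compared within NG. Of 28 results and 135 values under alternatives, no correlation with HG or HG + drugs across replicate numbers changed sign, and 102 stayed on the same side of the threshold or within 1.5 times the count. With a term for sets of 5 numbers, counts were 12 for Ins2, 2 for Txnip, 16 for Hspa5 and 1367 for Top2a. With a term for depth they were 45 (Ins2), 136 (Hspa5) and 1316 (Top2a). Without the 2 libraries farthest from the median they were 15 (Ins2), 1 (Txnip), 1 (Egr1), 1 (Hmgcs1), 1912 (Trib3), 259 (Top2a) and 1921 (Dbp). Under quantile normalization they were 5 (Hspa5) and 989 (Top2a), and under median-ratio scaling 221 (Hspa5, 167 with and 54 against it). The larger direction of calls turned under that scaling for Trib3 (1604 with and 1466 against, from 1504 and 1536) and Dbp (1754 and 1616, from 1611 and 1718), and for Dbp also under quantile normalization (1596 and 1588). Quantile normalization gave no value for Ins2, which ranks second in every library and so becomes constant. Without library 9, chosen after seeing the data, calls were 27 (Ins2), 7 (Txnip), 0 (Egr1), 1 (Hmgcs1), 2446 (Trib3), 42 (Hspa5), 1307 (Top2a) and 2468 (Dbp). The cause was not tested. The limit to transcripts of at least 300 bases, also added later, moved none. The share of the top 10 was 6.85% as reads. Variable transcripts numbered 118 at a minimum mean of 5 FPKM and 370 at 1 FPKM. Against HG, r without the 2 farthest numbers lost its call for Txnip (0.51), Egr1 (0.52), Hspa5 (0.49), Top2a (0.50) and Dbp (0.56), and for Top2a rho (0.38) did too. Against HG + drugs, Egr1 lost its call (0.44), and rho passed for Hmgcs1 (0.62), Trib3 (0.56) and Hspa5 (0.50). P-values measure the spread between these cultures, and low transcripts are limited by depth.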
